A study of Bos taurus with 3 samples.

Results

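Osteopontin (SPP1, NM_174187.2) and clusterin (CLU, NM_173902.2) are 2 of the 9154 genes with a tag in at least 1 of 3 libraries of bovine mammary tissue. They were chosen by their tag counts in the library of day 35 before parturition (−35 d), where SPP1 had the second highest count of all listed genes and CLU the fifth. Their level in that library and every difference from it are therefore given as a description, without a test. The tissue came from 18 Holstein cows of the second parity, 6 each at −35 d (the dry period), at −7 d, close to calving, and at +3 d, in early lactation. The biopsies of the 6 cows of a time point were pooled before RNA isolation, and 1 digital gene expression (DGE) library was made per pool. The libraries held 5593237 to 5914422 clean tags. No difference between these libraries could be set against replicates, intervals cover counting error only, and the spread among cows is not known. In pooled tissue, fewer cells of a type and less RNA per cell cannot be told apart.

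Osteopontin is a secreted, acidic and heavily phosphorylated glycoprotein that binds calcium. It carries an arginine-glycine-aspartate sequence through which integrins hold it, and CD44 is a further receptor. It is a component of milk, and both secretory epithelium and macrophages are known to make it. Clusterin, also called apolipoprotein J, is a secreted glycoprotein that keeps damaged proteins in solution outside the cell and inhibits the membrane attack complex of complement. Its mRNA is known to rise in glands that regress after milk removal stops.

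DGE counts a transcript through a short tag next to a site of the enzyme NlaIII, in principle 1 tag per transcript, so counts were not divided by transcript length. Tags were not matched to transcripts here, and no tag below is assigned to a gene. Of the 154 distinct tags with at least 3335 copies at −35 d (10% of the SPP1 count), 15 did not exceed the SPP1 count in any library. The ratios between libraries of 3 of these lay within 1 log2 unit of those of SPP1. The same 3 were the only ones of the 154 that were at least 8-fold lower at −7 d than at −35 d. They are printed with the tag nearest to the CLU ratios under the matching limits for CLU, because their copies follow the pattern of the genes. Capitals mark the NlaIII site.
Tag S1: CATGtagaagcaaacaaaata
Tag S2: CATGgtaacacccttctaaac
Tag S3: CATGtttttgatcattagttt
Tag C1: CATGccactaactcaataaac

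In the order −35 d, −7 d and +3 d, tag S1 had 18426, 1308 and 2037 copies. Tag S2 had 4584, 198 and 481 copies, and tag S3 had 7718, 272 and 409 in the same order. Each of the 3 tags was highest at −35 d and lowest at −7 d, which largely follows from their choice by the SPP1 ratios. Their summed copies came to 92.2%, 95.4% and 95.5% of the SPP1 count, and whether they were counted on SPP1 was not tested. A similar share in each library also follows in part from that choice. Tag C1 had 24007, 9386 and 15766 copies, which lay 0.08 log2 units from the CLU ratios. Of the 179 tags with at least 2806 copies at −35 d (10% of the CLU count), 133 did not exceed the CLU count in any library. Of these 133, 11 lay within 1 log2 unit of CLU. Their copies at −35 d summed to 66562, above the 28057 tags of CLU, so they cannot all belong to it.

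SPP1 mRNA was abundant in the dry gland and scarce by comparison in both later libraries. Its tags numbered 33341 at −35 d, then 1864 at −7 d and 3065 at +3 d. As TPM, the tag count scaled to an equal total of clean tags in each library, its level was 5637 at −35 d (95% exact Poisson interval 5577 to 5698), 333 at −7 d (318 to 349) and 524 at +3 d (506 to 543). Of all clean tags, 0.564% were SPP1 tags at −35 d (95% Wilson interval 0.558% to 0.570%). The shares at −7 d and +3 d were 0.0333% (0.0319% to 0.0349%) and 0.0524% (0.0506% to 0.0543%). The order of levels was −35 d, +3 d, −7 d, of which the first place was favoured by the choice of the gene. The intervals of −7 d and +3 d did not overlap. The level at −7 d was 16.9-fold lower than at −35 d, a log2 ratio of −4.08 (95% interval −4.15 to −4.01). The level at +3 d was 10.8-fold lower than at −35 d, with a log2 ratio of −3.43 (−3.48 to −3.37).

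CLU mRNA followed the same order of levels over a narrower range. CLU tags numbered 28057 at −35 d, then 10391 at −7 d and 17532 at +3 d. Its level was 4744 TPM at −35 d (95% exact Poisson interval 4688 to 4800), 1858 TPM at −7 d (1822 to 1894) and 2999 TPM at +3 d (2955 to 3044). These tags made up 0.474%, 0.186% and 0.300% of the clean tags, and the intervals of −7 d and +3 d did not overlap. The level at −7 d was 2.55-fold lower than at −35 d, a log2 ratio of −1.35 (−1.39 to −1.32). At +3 d it was 1.58-fold lower than at −35 d, a log2 ratio of −0.66 (−0.69 to −0.63). This last difference depended on the scaling in both directions. The log2 ratio was −0.16 after TMM scaling by edgeR, −0.30 when the 5 milk protein genes that each held over 1% of a library were left out of the totals, and −1.05 with totals of tags on listed genes. Together these 5 genes (CSN1S1, CSN2, CSN3, CSN1S2 and PAEP) held 0.348% of the clean tags at −35 d and 22.6% at +3 d, and their part in the CLU difference cannot be told apart from a lower level of CLU itself.

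**Figure D1:**
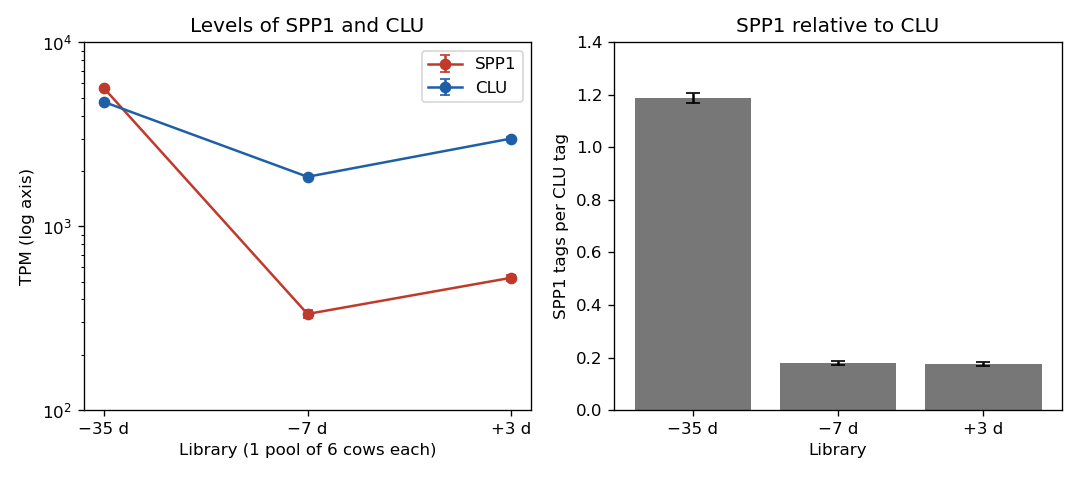
Left, level of SPP1 and CLU in TPM on a log axis in the libraries of −35 d, −7 d and +3 d, with 95% Poisson intervals that are mostly smaller than the points; right, tags of SPP1 per tag of CLU with 95% exact binomial intervals. SPP1 was above CLU at −35 d (5637 against 4744 TPM) and below it in both later libraries, where the ratio was 0.179 and 0.175.

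The ratio of SPP1 to CLU tags within a library does not depend on how libraries are scaled. It was 1.19 at −35 d (95% exact binomial interval 1.17 to 1.21), 0.179 at −7 d (0.171 to 0.188) and 0.175 at +3 d (0.168 to 0.182). At −35 d the dry gland thus held more SPP1 than CLU tags, whereas CLU outnumbered SPP1 5.57 to 1 at −7 d and 5.72 to 1 at +3 d. From −35 d to −7 d the ratio became 6.62-fold smaller. Between −7 d and +3 d it changed by a factor of 0.975 (95% interval 0.916 to 1.04), and the tag counts of the pair did not differ in proportion between those libraries (two-sided Fisher's exact test, p = 0.424). This interval allows a relative shift of SPP1 of up to 8.45% downwards or 3.74% upwards by counting error. The comparison was added after the values were seen.

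In rank, SPP1 stood at 2 of 8662 listed genes at −35 d, 135 of 8363 at −7 d and 71 of 8359 at +3 d. CLU stood at 5, 27 and 14. At −35 d, only FTH1, the ferritin heavy chain, had more tags than SPP1 (7431 TPM), and the ribosomal protein gene RPL13A followed at 5451 TPM. CLU stood between RPL10, a further ribosomal protein gene, at 5278 TPM and B2M, the light chain of MHC class I, at 4209 TPM. At −7 d the SPP1 count of 1864 lay between those of the splicing factor gene SRSF6 (1879 tags) and the RNA-binding protein gene NONO (1847 tags). At +3 d it lay between VIM, which encodes the intermediate filament vimentin (3086 tags), and RPL10A (3054 tags). CLU had RPL23 above it (10665 tags) and the collagen gene COL3A1 below it (10232 tags) at −7 d, and RPL13A (18912 tags) and ACTB (15342 tags) at +3 d. At −7 d and +3 d, the gaps of SPP1 to its neighbours were within its Poisson interval.

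A loss in TPM cannot exceed the level at −35 d, the value by which SPP1 and CLU were chosen. Their places in an order of losses therefore follow in part from the choice. No listed gene lost more TPM between −35 d and −7 d than SPP1, with a difference of −5304 TPM, and CLU came next with −2886 TPM. FTH1 (−1911 TPM) and LTF, the gene of the iron-binding milk protein lactoferrin (−984 TPM), had the next largest losses. SPP1 had the largest loss between −35 d and +3 d as well, and CLU then stood at place 6 of that order. Among the 100 genes with the most tags at −35 d, the median log2 ratio of −7 d to −35 d was −0.16, and SPP1 was the only one with a level over 4-fold lower at −7 d. CLU had the seventh lowest ratio of these 100 genes. Besides SPP1, those with a lower ratio were MGP (−1.67), RPL39 (−1.49), TXNIP (−1.42), VIM (−1.41) and SEPP1 (−1.37). MGP encodes matrix Gla protein, an inhibitor of calcification, and SEPP1 the selenium carrier selenoprotein P. Among 5902 genes averaging 5 TPM or more, only 1 gene, SERPINA3-3, had a lower ratio than SPP1, while 214 had a lower ratio than CLU.

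**Figure D2:**
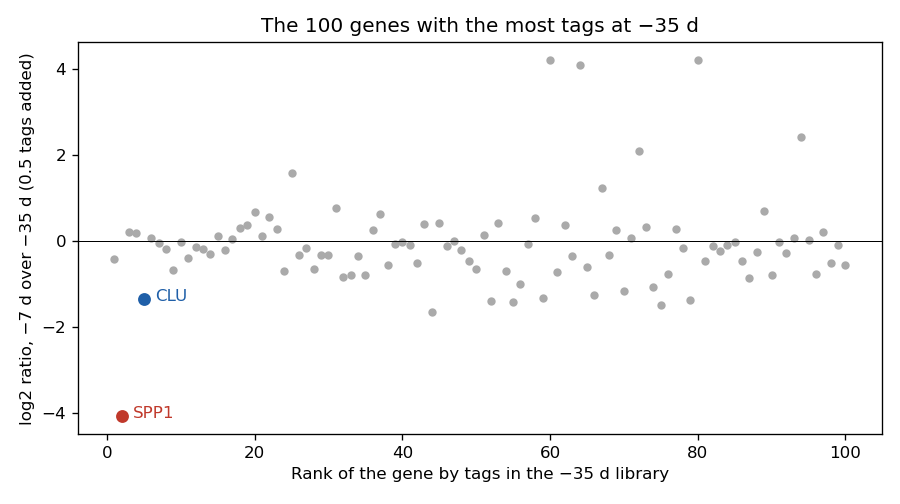
Log2 ratio of −7 d to −35 d (0.5 tags added) of the 100 genes with the most tags at −35 d, ordered on the x axis by their rank in that library. SPP1 at rank 2 lies alone at −4.08, and CLU at rank 5 lies at −1.35, where 5 other genes have a ratio between it and SPP1.

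Across parturition, from −7 d to +3 d, SPP1 and CLU were both higher in the later library, by 1.57-fold and 1.61-fold. The rule did not use these libraries, so the Audic-Claverie test, which asks whether a pair of tag counts differs by more than Poisson counting error, was applied to them. A call needed a false discovery rate (FDR) no higher than 0.001 together with a change of 2-fold or more. The log2 ratio of SPP1 was 0.65 (95% interval 0.57 to 0.74), with an adjusted p of 1.54e-53 in the exact Audic-Claverie test. The log2 ratio of CLU was 0.69 (0.66 to 0.73), and the −log10 of its unadjusted p was 337.1. Both differences were thus beyond counting error and below the 2-fold threshold, and neither gene was called. Of the 8784 genes tested, 3.12% were called higher and 10.4% lower at +3 d. The median log2 ratio of genes averaging 5 TPM or more was −0.34, and 530 of the 5902 genes had a higher ratio than SPP1 and 492 a higher ratio than CLU. After TMM scaling, which raised all ratios of this comparison by 0.31, SPP1 stood at 0.96 and CLU at 0.999, still below the threshold. With DESeq2's size factors, CLU reached 1.01 and was called. Totals of tags on listed genes moved the ratios the other way, to 0.30 for SPP1 and 0.33 for CLU. When an assumed biological coefficient of variation of 0.2 between pools was entered into edgeR's exact test, the adjusted p was 0.402 for SPP1 and 0.357 for CLU. In absolute terms CLU gained 1141 TPM, the 10th largest gain of any gene. The larger gains were those of CSN1S1, CSN2, PAEP, CSN1S2, CSN3, LALBA, GLYCAM1, SPARC and COL1A1.

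To see which genes shared these profiles, the 5 genes nearest to each in the plane of both stage ratios were taken over the 3 libraries, with likeness measured as Euclidean distance in log2 units among the 5902 genes averaging 5 TPM or more. None of these lay within 1 log2 unit of SPP1. Below that level, where counts are low, 51 genes did, among them MMP7 at 0.85 units. The nearest, at 1.12 units, was CHI3L1, a secreted chitinase-like glycoprotein, with 370, 27 and 93 tags in the order of the time points. SERPINA3-3, a serine protease inhibitor, lay at 1.31 units with 555, 12 and 20 tags. LYPD3, a cell surface protein, lay at 1.36 units with 87, 9 and 30 tags. The other two were the predicted loci LOC520988 (1.18 units) and LOC100298308 (1.55 units). All 5 had far fewer tags than SPP1. Among the same 5902 genes, 215 lay within 0.5 units of CLU. The nearest was C2, a component of the classical complement pathway, at 0.016 units with 312, 114 and 193 tags. IL6ST, the signal-transducing subunit shared by interleukin 6 family receptors, had 91, 33 and 54 tags (0.055 units), and CLN8 had 105, 38 and 62 (0.060 units). VIM was the abundant gene among the nearest, with 5151, 1834 and 3086 tags (0.057 units), and TMEM185A was the fifth (0.085 units).

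**Figure D3:**
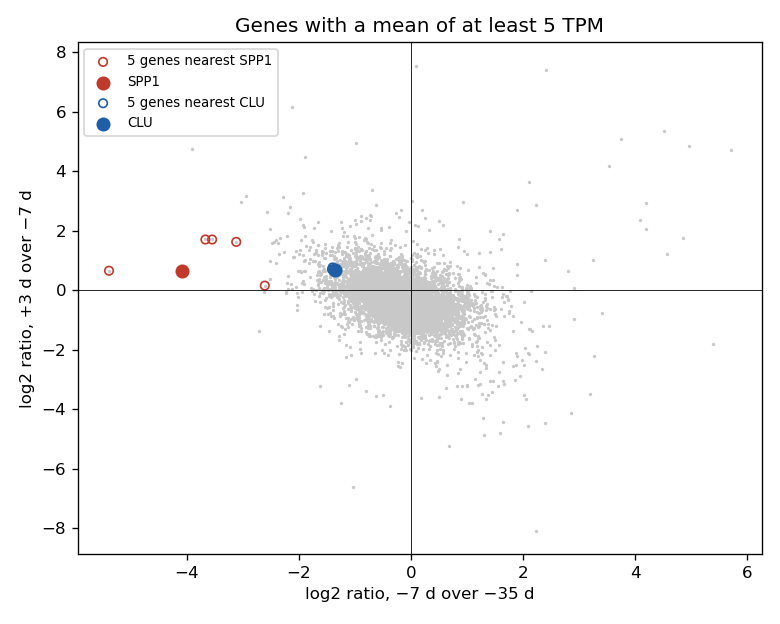
Log2 ratio of −7 d to −35 d (x axis) against that of +3 d to −7 d (y axis) for 5902 genes averaging 5 TPM or more (0.5 tags added), with SPP1, CLU and the 5 genes nearest to each. SPP1 lies at −4.08 on the x axis with none of the plotted genes within 1 unit, while CLU lies at the edge of the dense cloud and covers its 5 nearest genes.

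The receptors, enzymes and partners of osteopontin and clusterin were followed as lists, 47 records in all with the genes of involution and transcription factors. With clean tags as the scale, 2.62% of 8967 genes were called higher and 6.45% lower at −7 d compared with −35 d. Of the 47 records, 1 was called higher and 13 lower. At +3 d compared with −7 d, 10 were called higher and 2 lower, beside 3.12% and 10.4% of the 8784 genes tested. At +3 d compared with −35 d, 2 were called higher and 6 lower, beside 2.33% and 16.3% of the 8988 genes tested. The split over all genes depended on the scale: 71.1%, 77.0% and 87.5% of the calls of these comparisons were lower, and 48.1%, 45.5% and 44.2% after TMM scaling. In the lists, TMM scaling left 10 lower and 1 higher in stage I (−7 d compared with −35 d), and 1 lower and 12 higher in stage II (+3 d compared with −7 d). The split between +3 d and −35 d turned, from 2 higher and 6 lower to 7 higher and 3 lower. The calls lost with TMM scaling, and equally with size factors, were those of C6, C7 and CTSB in stage I, HSF1 in stage II, and APOE, ITGB1 and LTF at +3 d compared with −35 d. With totals of tags on listed genes, the higher calls of C7, HP, ITGB5, MMP2 and SPARC in stage II and of SPARC at +3 d compared with −35 d were lost. With an assumed coefficient of variation of 0.2, edgeR's exact test called none of the list genes in stage I and only 1, lower, in stage II.

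Of the 10 osteopontin receptors, 7 were listed, and ITGB3, ITGA8 and ITGA9 were not. Their median log2 ratio was −1.20 in stage I and 0.65 in stage II, beside −0.19 and −0.31 over all genes averaging 1 TPM or more. ITGB5, the beta 5 integrin subunit that pairs with the alpha V subunit, had 564, 232 and 486 tags in the order of the time points. It was called lower in stage I (log2 ratio −1.20) and, just past the 2-fold threshold, higher in stage II. ITGB6, an epithelial partner of alpha V, had 15, 0 and 18 tags and was called in both stages. The count of 0 was taken as 3 tags, the limit that it allows in a library. On that basis the level was 4.73-fold lower at −7 d than at −35 d and 5.74-fold higher at +3 d than at −7 d. The counting error of the 15 and 18 tags is not part of these values. ITGB1, the common beta 1 subunit, was called lower in stage I (232, 82 and 93 tags; −1.41) and was not called in stage II (0.12). ITGAV itself had 21, 8 and 14 tags, ITGA4 had 13, 8 and 5, and neither was called. CD44 had 492, 544 and 653 tags and ITGA5, the fibronectin receptor subunit, had 145, 125 and 205, also without a call. The receptors thus comprised 3 called lower in stage I, with none called higher, and 2 called higher in stage II. Over all genes tested, the shares of these calls were 6.45%, 2.62% and 3.12%.

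Among the enzymes known to act on osteopontin, 4 of 8 were listed. The matrix metalloproteinases MMP7 and MMP9, which cleave it, had low counts and were called lower in stage I. MMP7 had 32 tags at −35 d and 2 in each later library, and MMP9 had 31, 5 and 0. TGM2, a transglutaminase that cross-links osteopontin, had 100, 114 and 124 tags and was not called in any comparison. F2, the prothrombin gene, had 3 to 8 tags. The related secretory phosphoprotein genes IBSP and MEPE were not listed, and a record named DSPP in the table but DMP1 in RefSeq had 12, 0 and 4 tags without a call. SPARC, a matricellular calcium-binding protein of the wider family, had 10598, 10787 and 24615 tags. SPARC was called higher in stage II (log2 ratio 1.13) and at +3 d compared with −35 d (1.23), where SPP1 was 10.8-fold lower. SPARCL1 had 405, 408 and 474 tags and was not called.

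The 3 listed clusterin receptors had few tags: TREM2, a receptor of macrophages and other myeloid cells, had 69, 24 and 47 tags and was called lower in stage I (log2 ratio −1.42). LRP8 had 14, 22 and 7 tags and VLDLR 12, 5 and 2, without a call, and LRP2 was not listed. Of the terminal complement genes, C7 had 225, 95 and 230 tags and was called lower in stage I (−1.16) and higher in stage II (1.21). C6 had 30, 6 and 22 tags and was called lower in stage I. Both lower calls were lost with TMM scaling and with size factors, and the higher call of C7 with totals of tags on listed genes. C8G, a lipocalin bound to C8, went the other way with 416, 940 and 701 tags and was the list gene called higher in stage I (1.26). C8A and C8B had 0 to 8 tags in each library, and C5, C9, VTN and CD59 were not listed.

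Of the lipoprotein partners and other extracellular chaperones, HP (haptoglobin, which binds free haemoglobin) had 266, 58 and 132 tags and was called lower in stage I (−2.11) and higher in stage II (1.12). TTR, the thyroid hormone carrier transthyretin, had 41, 14 and 59 tags and was called higher in stage II (1.97). A2M, the protease inhibitor alpha-2-macroglobulin, had 2022, 1199 and 2087 tags without a call. APOE, the lipid carrier apolipoprotein E, had 2545, 1308 and 947 tags and was called lower at +3 d compared with −35 d (−1.41), though not with TMM scaling or size factors. The 4 listed genes had a median log2 ratio of −1.16 in stage I and 0.93 in stage II. Over all genes averaging 1 TPM or more the medians were −0.19 and −0.31.

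The list of genes known to rise in involution held 15 listed genes of 18, of which 14 averaged 1 TPM or more. In stage I, 12 of these 14 had ratios below 0. The median of the 14 was −0.88, beside −0.19 over all genes averaging 1 TPM or more. Of all genes tested, 6.45% were called lower and 2.62% higher in stage I. In the list, 4 were called lower and none higher. The 4 were the lysosomal proteases CTSB (3974, 1665 and 2687 tags; −1.17) and CTSD (865, 340 and 537; −1.27), the gelatinase MMP2 (261, 76 and 189; −1.69) and the oncostatin M receptor OSMR (159, 60 and 86; −1.32). In stage II, 12 of 14 had a ratio above 0. The median was 0.52, beside −0.31 over all genes averaging 1 TPM or more. Of all genes tested in stage II, 3.12% were called higher and 10.4% lower. MMP2 (1.24), its inhibitor TIMP1 (312, 150 and 458 tags; 1.54), IGFBP5 (66, 32 and 93; 1.46) and CD14 (17, 24 and 115; 2.17) were called higher. SAA3, an acute phase protein made in the gland, was called lower in stage II (2011, 1005 and 263 tags) and at +3 d compared with −35 d (−2.92). LTF had 15675, 9319 and 6640 tags and was called lower at +3 d compared with −35 d (−1.22), a call lost with TMM scaling, size factors and totals without the genes over 1%. STAT3, the factor that drives involution, had 274, 145 and 179 tags, and its target CEBPD had 1979, 1069 and 1328. PLAU (119, 105 and 194 tags) and TIMP3 (422, 261 and 304) were not called in any comparison, nor were STAT3 and CEBPD. For LTF and SAA3 the later libraries were lower in sequence, whereas CTSB, CTSD and OSMR were lowest at −7 d like SPP1 and CLU. Of the factors known to act on the SPP1 or CLU gene, JUN had 571, 298 and 338 tags and FOS 326, 208 and 334, without a call. HSF1, the heat shock factor, had 268, 272 and 141 tags and was called lower in stage II (−1.01), a call lost with TMM scaling, size factors and totals without the genes over 1%. VDR, the vitamin D receptor, had 7, 0 and 2 tags and ETS1 had 17, 5 and 9, and RUNX2 was not listed.

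**Figure D4:**
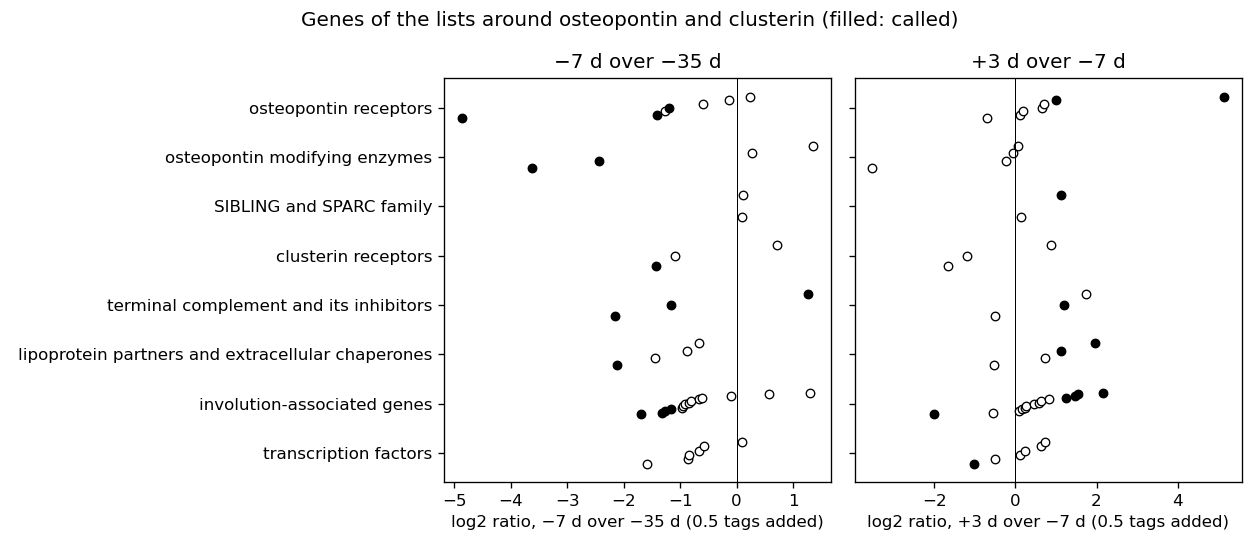
Log2 ratio (0.5 tags added) of each gene of the 8 lists that averaged 1 TPM or more, for −7 d over −35 d (left) and +3 d over −7 d (right); each point is 1 gene and filled points were called by the Audic-Claverie test. Called genes lie mostly left of 0 in stage I (13 lower, 1 higher) and right of 0 in stage II (10 higher, 2 lower); the outermost receptor in both panels is ITGB6, with 0 tags at −7 d.

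Markers of the cell types that biopsies may hold were set beside SPP1 and CLU, and their part in the differences was not tested. The 11 listed macrophage records of 14 symbols summed to 345 TPM at −35 d, 263 at −7 d and 477 at +3 d, with 3 called lower in stage I and 3 higher in stage II. CD68 had 35, 5 and 12 tags, CD163 had 46, 11 and 116, and CSF1R had 308, 126 and 318. These 3 were the markers called lower in stage I, whereas C1QA (585, 527 and 738 tags; −0.07) and C1QB (620, 555 and 1148; −0.08), subunits of complement C1q, and CD14 (17, 24 and 115; 0.57) were not called in that stage. The markers MRC1, MARCO, C1QC and TYROBP were not listed. The log2 ratio of the macrophage sum at +3 d over −35 d was 0.47, beside −3.43 for SPP1. C1QA and C1QB held much of that sum, and the other 9 records came to 141, 69.6 and 154 TPM. Their summed log2 ratio was −1.02 in stage I and 0.13 at +3 d over −35 d. In the latter, CD68 (−1.49), AIF1 (−0.43), ITGAM (−2.31, with 2, 0 and 0 tags) and an MSR1 record (−0.17) were below 0. The rest of these 9 records were above 0. The 10 luminal epithelium markers summed to 2312, 1617 and 1531 TPM, with 3 called lower in stage I (CDH1, CLDN4 and MUC1), of which CDH1 alone was called with TMM scaling or size factors. MUC1, a mucin of the milk fat globule membrane, had 276, 123 and 575 tags and was called higher in stage II (2.16) and at +3 d compared with −35 d (1.07), the latter not with totals of listed tags. KRT8, a luminal keratin, had 1754, 878 and 957 tags, EPCAM 2944, 1639 and 1229 and ELF5, the alveolar factor, 1604, 1974 and 907. EPCAM (−1.24) and CDH1 (−1.57) were called lower at +3 d compared with −35 d, and ELF5 (−1.19) was called lower in stage II. These calls were lost with TMM scaling, size factors and totals without the genes over 1%. At +3 d over −35 d, 9 of the 10 luminal markers had a ratio below 0. KRT18, PRLR, ESR1 and FOXA1 were not listed. As a background to the calls in both marker lists, 6.45% of all genes tested were called lower in stage I and 2.62% higher. In stage II, these shares were 10.4% lower and 3.12% higher, and at +3 d compared with −35 d they were 16.3% lower and 2.33% higher. The sums of all 9 marker lists were lower at −7 d than at −35 d, with log2 ratios from −0.39 for macrophages to −0.95 for neutrophils, beside −4.08 for SPP1 and −1.35 for CLU. From −7 d to +3 d, the myoepithelium and smooth muscle sum was higher by 1.16 and the fibroblast sum by 0.60, and the log2 ratio of the luminal sum was −0.08. The adipocyte sum was higher by 1.04, most of it held by FABP4 (904, 511 and 1428 tags). The other 4 adipocyte markers together had a log2 ratio of −0.31, although PLIN1 among them was above 0 (0.51). The median of the list was −0.46. T cell markers summed to 179, 113 and 114 TPM and endothelium markers to 91.6, 63.5 and 102 TPM. The 4 records of B cells and plasma cells summed to 308, 166 and 177 TPM, and the 3 of neutrophils to 15.6, 8.05 and 10.8 TPM.

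**Figure D5:**
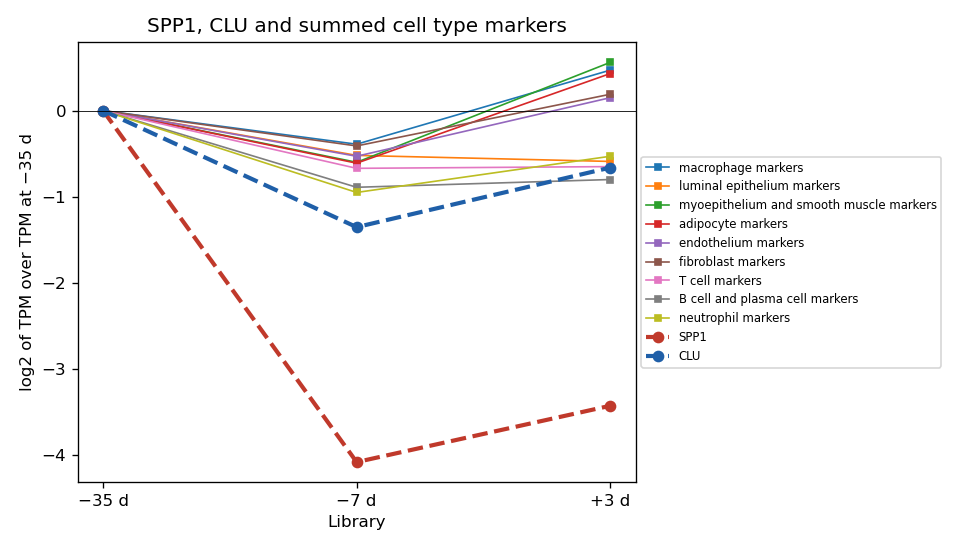
Log2 of the TPM of SPP1 and CLU (dashed) and of the summed TPM of 9 marker lists (solid) relative to the −35 d library, in the 3 libraries. At −7 d the marker sums lie between −0.39 and −0.95, above CLU at −1.35 and SPP1 at −4.08, and at +3 d SPP1 remains at −3.43.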

How the data were processed

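The deposited counts are unambiguous clean tags per gene and copies per distinct tag. The authors removed adaptors, single-copy tags and those with unknown bases or an unusual length, and then matched tags of 21 bases (CATG and 17 bases) to transcripts of Bos taurus UMD 3.1 with at most 1 mismatch. The deposited TPM values are the authors' counts scaled by the clean tags of the library, and counts divided by that total differed from them by at most 0.005 TPM. The tables were joined by accession, genes missing from a library's table were set to 0 tags, and SPP1 and CLU were found by the last symbol in brackets. List symbols were also matched by accession to RefSeq names (ARS-UCD2.0, names only). Each pair of libraries was compared over the whole table with the Audic-Claverie test of the study's methods, with p as 2 times the smaller tail, 0 TPM set to 0.01 TPM and Benjamini-Hochberg adjustment. A quasi-likelihood fit was not used because each time point has 1 library. The test compares libraries, not conditions. It was checked on simulated data with Poisson counting error only, so the check does not cover spread among cows or pools. Exact binomial intervals of the share of tags gave those of log2 ratios, and the log odds gave that of the change in the SPP1 to CLU ratio. Fitted ratios of list genes have 0.5 tags added. The members and lists were chosen with earlier results of these data known. The named genes are SPP1, CLU, their 5 nearest genes, their neighbours in rank, and list genes that were called or had a mean of at least 20 TPM; further list genes and the genes with large TPM differences were named after their values were seen. Alternatives were TMM scaling, DESeq2's size factors, totals without genes over 1%, totals of tags on listed genes, edgeR's exact test with assumed coefficients of variation of 0.2 and 0.4, Fisher's exact test, 0.5 tags added and a minimum mean of 5 TPM. Tools were Python 3.11.15, scipy 1.17.1, R 4.3.3, edgeR 4.0.16 and DESeq2 1.42.0. The authors' summary of mapping classes was not used here.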

Additional observations from a re-analysis of the deposited data

How the results depend on the processing

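No paired analysis was possible because each time point has 1 library. SPP1 stayed lowest at −7 d and highest at −35 d under every scaling, and so did CLU. The log2 ratio of SPP1 at −7 d over −35 d was −3.89 with TMM and with DESeq2's size factors. At +3 d over −35 d it was −2.93 with TMM, −2.91 with size factors, −3.06 without the genes over 1% and −3.81 with totals of listed tags. The log2 ratio of CLU at −7 d over −35 d was −1.16 with TMM and with size factors and −1.30 without the genes over 1%. At +3 d over −35 d it was −0.16, −0.15, −0.30 and −1.05 in the order given for SPP1. At +3 d over −7 d, CLU was called only with size factors (1.01). Totals of listed tags gave 0.30 for SPP1 and 0.33 for CLU there. The adjusted p of SPP1 was 1.76e-53 by Fisher's exact test, but 0.402 and 1 by edgeR's exact test with assumed coefficients of variation of 0.2 and 0.4; since the ratio was below 2-fold, a call was not possible with either.

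Over all genes in stage I, 235 were called higher and 578 lower, against 378 and 350 with TMM, 378 and 348 with size factors, and 27 and 27 when edgeR's exact test assumed 0.2 as the coefficient of variation. In stage II the main numbers were 274 higher and 915 lower, against 516 and 430 (TMM), 524 and 413 (size factors), 517 and 430 (without genes over 1%), 147 and 1906 (totals of listed tags) and 65 and 95 (exact test). At +3 d compared with −35 d they were 209 and 1463, against 560 and 444, 572 and 420, 412 and 627, 121 and 2898, and 54 and 102 in the same order. In the lists, the exact test called 0 higher and 0 lower in stage I (1 and 13 in the main comparison) and 0 higher and 1 lower in stage II (10 and 2). Totals of listed tags gave 5 higher in stage II, and TMM, size factors and totals without genes over 1% gave 1 lower. At +3 d compared with −35 d, 2 list genes were called higher in the main comparison, 7 with TMM, 7 with size factors, 4 without genes over 1%, 1 with totals of listed tags and 1 by the exact test. For those called lower, the main number was 6, against 3 with TMM, 3 with size factors, 12 with totals of listed tags and 3 by the exact test. The rank of the most abundant tag of each gene and the match with 1 mismatch were not run, because tags were not matched to genes here. Removal of tags with 1 copy limits what a count of 0 to 3 tags shows.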

Other observations

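The nearest protein-coding genes on the chromosome were taken from the order of RefSeq genes in ARS-UCD2.0, after the values of SPP1 and CLU were seen. PKD2, which encodes the cation channel polycystin 2 and lies next to SPP1, had 151, 76 and 121 tags in the order of the time points, without a call. ABCG2, the transporter that secretes riboflavin and other compounds into milk and lies 3 genes from SPP1, had 270, 315 and 779 tags. It was called higher at +3 d compared with −7 d (log2 ratio 1.24) and compared with −35 d (1.54), where SPP1 was lower. On the other side of SPP1, MEPE and IBSP were not listed, and LAP3, a leucine aminopeptidase, had 418, 322 and 263 tags without a call. Of the genes around CLU, CCDC25 had 32, 43 and 37 tags and NDUFB6, a subunit of respiratory complex I, had 148, 252 and 179, neither with a call. ESCO2, which acts in sister chromatid cohesion, had 18, 26 and 2 tags and was called lower in stage II and at +3 d compared with −35 d. None of these listed neighbours was as much lower at −7 d than at −35 d as SPP1 or CLU.

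MGP had the lowest ratio of −7 d to −35 d after SPP1 among the 100 genes with the most tags at −35 d (5450 tags at −35 d and 1622 at −7 d). Its count at +3 d was 8238, a log2 ratio of 0.61 to −35 d, whereas that of SPP1 was −3.43. MGP was named after its values were seen.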
